A study of Homo sapiens with 24 samples.

Results

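The levels of 8 long noncoding RNAs, 8 rows of a table of 18889 genes, were followed in estrogen receptor-positive (ER+) breast cancer cells kept in low or high glucose. They were chosen by gene symbol, with earlier results of these same values known: UCA1, MALAT1, NEAT1, H19, GAS5, SNHG1, HOTAIR and TUG1. UCA1 was taken up because its response to glucose had been seen. Their levels and glucose changes are therefore given as a description, with no p-value, and p-values are given only for other genes and for covariation between replicates. The lists of other genes were also chosen with earlier results of these data known. Most genes named from them are those with the largest changes, so their p-values are not independent of that choice. The cells were of 3 established ER+ lines (ZR-75-30, HCC1500 and MDA-MB-175), each at 5 mM glucose (LG, the control) or 25 mM glucose (HG, the model of hyperglycemia) for 48 hours, with 4 replicates per group and 24 RNA-Seq libraries in all. No genetic change or drug separated the groups. According to the study's methods, cells were first conditioned in low glucose and then held in serum-free medium, and no mannitol control is given for these libraries, so glucose and osmolarity cannot be told apart.

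Long noncoding RNAs are transcripts that are not translated into a long protein and act as RNA. MALAT1 gathers in nuclear speckles, where splicing factors are stored, and NEAT1 is the architectural RNA of paraspeckles, nuclear bodies built with proteins such as SFPQ and NONO. GAS5 and SNHG1 carry small nucleolar RNAs (snoRNAs) in their introns, and their spliced transcripts are cleared by nonsense-mediated decay once ribosomes engage them. HOTAIR is transcribed from the HOXC cluster and is known for binding polycomb and LSD1 complexes, H19 is an imprinted fetal transcript next to IGF2, TUG1 is broadly expressed, and UCA1 was named for its abundance in urothelial carcinoma.

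Values are normalized read counts as deposited. Depth ran from 9140024 to 17998819 reads per library, and 3 reads corresponded to a value of 0.95 to 2.29, which serves as the floor below which a level was not read. HCC1500 HG replicate 3 stood apart: its mean correlation with its group was 0.944 against at least 0.99 in the other 23 libraries, and its values summed to 7319781 against 5559394 to 5716906 in the other HCC1500 libraries. Fitted log2 changes of the members and of other named genes in HCC1500, and counts of the lists, are given with and without it. HCC1500 LG libraries were also deeper (13190982 to 17998819 reads) than HG libraries (9423472 to 12140912), and the part of depth in the HCC1500 differences was not tested. All 8 luminal markers were present, summing to 30777.8 to 64552.9 per library. Summed markers ran from 0 to 89.0 for basal cells (2 of 4 listed found), 78.6 to 295 for fibroblasts (5 of 5) and 0 to 77.7 for endothelium (2 of 3). Of 5 leukocyte markers CD14 was found, at 0.431 to 3.04 in HCC1500 LG and 8.26 to 26.7 in HCC1500 HG, and the part of other cells in the HCC1500 results was not tested. In bulk RNA, a change in the number of cells that express a gene and a change in RNA per cell cannot be told apart.

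**Figure D1:**
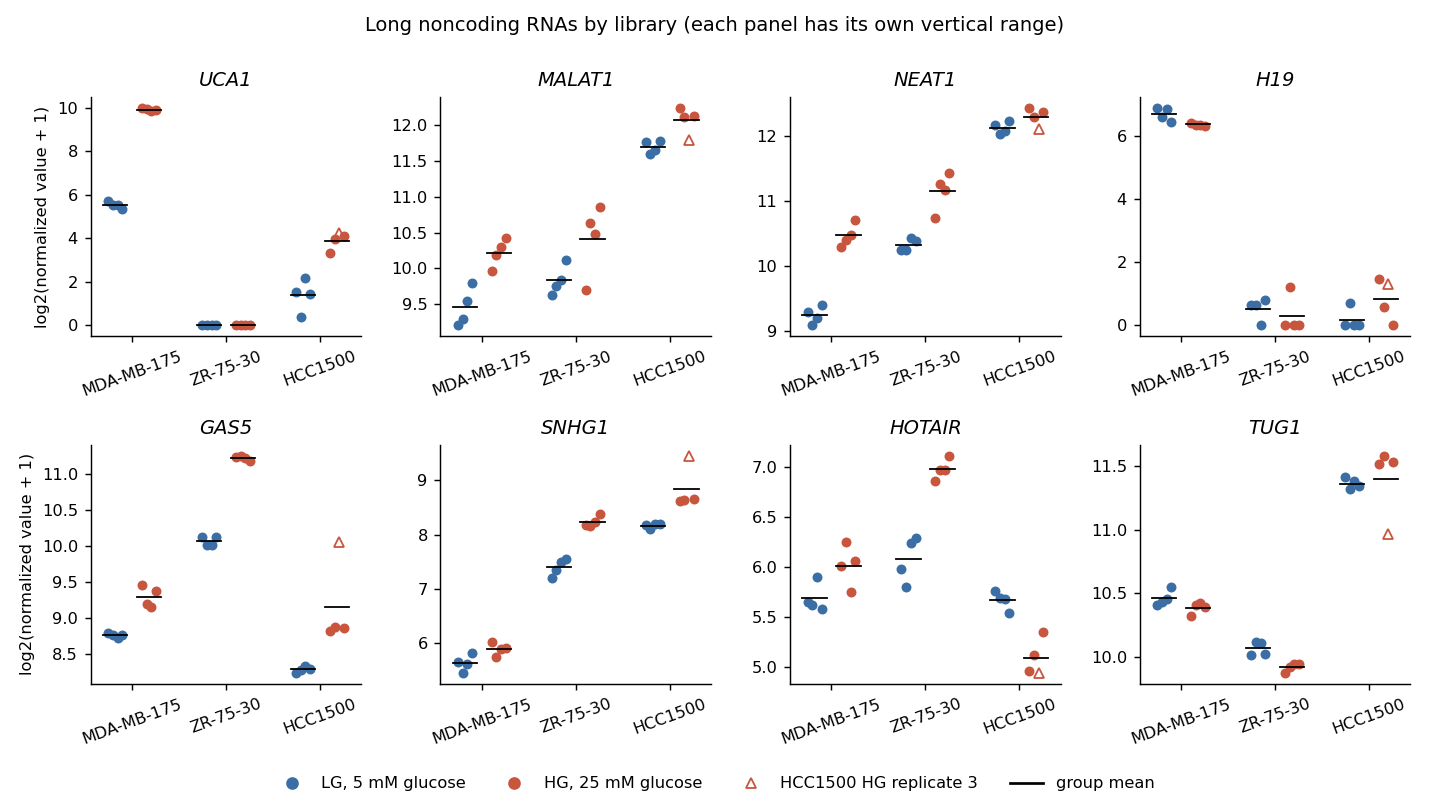
Normalized values of the 8 long noncoding RNAs in 24 libraries, as log2(value + 1), with 4 libraries per group, LG in blue and HG in red, and bars at the group means. UCA1 rose in MDA-MB-175 and HCC1500 and had no read in ZR-75-30. The open triangle, HCC1500 HG replicate 3, lies apart from its group in GAS5, SNHG1 and TUG1.

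With high glucose, 5 of the 8 transcripts passed the limma threshold (adjusted p under 0.05 over all genes tested) in MDA-MB-175, 4 higher and 1 lower. Among all 17029 genes tested in that line, 25.7% passed, 11.9% higher and 13.7% lower. In ZR-75-30, 6 of 7 tested transcripts passed, 5 higher and 1 lower, against 46.0% of all genes, 23.4% higher and 22.7% lower. In HCC1500, 5 of 7 passed, 4 higher and 1 lower, against 20.5% of all genes, 7.46% higher and 13.0% lower. Without HG replicate 3, all 7 tested transcripts passed, 6 higher and 1 lower, against 58.5% of all genes, 20.9% higher and 37.7% lower. When any other HCC1500 library was left out in place of replicate 3, 1 to 3 members passed. The median log2 change was 0.43, 0.83 and 0.37 over the tested members (MDA-MB-175, then ZR-75-30, then HCC1500), and -0.02, 0.01 and -0.06 over all genes. Scaling moved the balance of all calls in HCC1500, where 36.4% were higher with the deposited values, 48.9% with median-of-ratios rescaling and 52.4% with DESeq2. LG and HG values did not overlap for 5 members in each line, and for 7 in HCC1500 without HG replicate 3, against 26.6%, 42.0%, 32.4% and 58.1% of all genes in the same order. Since the members were taken with these changes known, nothing is read from these shares.

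UCA1 (ENSG00000214049; GRCh37 chr19:15939016-15947138, plus strand) is a long noncoding RNA gene among the CYP4F genes for fatty acid omega-hydroxylases. In MDA-MB-175 its values were 52.2, 45.6, 44.4 and 39.2 at LG and 1008, 980.4, 919 and 939 at HG. Every HG library thus stood far above every LG library, in counts of 1726 to 2422 reads against 68 to 130. The mean rose from 45.3 ± 5.34 to 962 ± 39.9 (SD, n = 4 each), a ratio of 21.2 and a log2 change of 4.38 ± 0.08 (SE), which ranked 4 among the rises of the 17029 genes tested. HCC1500 expressed UCA1 at a far lower level, with values of 1.9, 0.318, 3.45 and 1.72 at LG and 8.85, 14.4, 17.8 and 16.2 at HG. The groups did not overlap, but the LG libraries held only 19 reads together and the HG libraries 103, a ratio of 8.04 with a 95% exact counting interval of 4.9 to 13.9. This gave a log2 change of 2.51 ± 0.39, and of 2.4 ± 0.38 without HG replicate 3. At these low values the estimate depends on the pseudocount and scaling, and ran from 1.35 to 3.19 over all settings. ZR-75-30 had 0 UCA1 reads in all 8 libraries, of 102116234 reads in total, which allows values of up to 1.27 to 2.29 in a library. Against the highest of these floors, set per library, UCA1 was at least 19.8-fold higher in MDA-MB-175 at LG, at least 420-fold higher in MDA-MB-175 at HG and at least 6.25-fold higher in HCC1500 at HG.

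The genes around UCA1 changed less. CYP4F12 rose in MDA-MB-175 from a mean of 53.4 to 81.3 (log2 0.59 ± 0.11, limma adjusted p = 0.00055), and CYP4F22 rose in HCC1500 from 14.4 to 30.4 (log2 0.99 ± 0.22, adjusted p = 0.014, and 0.79 ± 0.18 without HG replicate 3). CYP4F11 did not pass in either line, with means of 13.1 and 17.1 in MDA-MB-175 and of 11.4 and 6.47 in HCC1500, but without HG replicate 3 it passed as lower in HCC1500 (log2 -1.19 ± 0.24, adjusted p = 0.00033). Annotated exons of UCA1 share 1302 bases with opposite-strand genes, and whether the libraries kept strand is not given for these samples. The same limit holds more strongly for MALAT1 (overlaps summing to 8731 bases, beside 10434 exon bases), and also for TUG1 (810 bases) and GAS5 (382 bases). These overlaps, with that of UCA1, are sums over the opposite genes, so a base opposite more than 1 of them counts again.

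MALAT1 and NEAT1, the nuclear body RNAs, lie beside each other on chromosome 11. MALAT1 (ENSG00000251562; GRCh37 chr11:65265111-65275544, plus strand) had values of 589.5, 624.5, 745 and 885 at LG and 999.7, 1166, 1257 and 1372 at HG in MDA-MB-175. All HG libraries were above all LG libraries there, with a log2 change of 0.76 ± 0.11. In ZR-75-30 the values were 794, 862, 913 and 1107 at LG and 829.6, 1582, 1420.3 and 1859 at HG. The ZR-75-30 groups overlapped because HG replicate 1 lay among the LG libraries, and the log2 change was 0.58 ± 0.16. HCC1500 had the highest MALAT1 values, 3457, 3084, 3202 and 3517 at LG and 4819.9, 4426, 3555 and 4448 at HG. Its groups did not overlap, and the log2 change was 0.37 ± 0.11, or 0.46 ± 0.04 without HG replicate 3, the lowest of the HG libraries. MALAT1 in HCC1500 passed the threshold narrowly: it did not pass under 6 of the 11 other settings and when any library other than HG replicate 3 was left out.

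NEAT1 (ENSG00000245532; GRCh37 chr11:65190245-65213011, plus strand) rose more than MALAT1 in MDA-MB-175, from 620.4, 540.0, 582.5 and 674 to 1249, 1343, 1429 and 1678 (log2 1.23 ± 0.08). In ZR-75-30 it went from 1211, 1205, 1384 and 1334.5 to 1711, 2450.5, 2294.5 and 2771 (log2 0.83 ± 0.10). Both lines showed no overlap between LG and HG. HCC1500 held NEAT1 at 4624, 4195, 4339 and 4833 at LG and 5538, 5020.3, 4411.5 and 5287 at HG, overlapping ranges with a log2 change of 0.17 ± 0.10 that did not pass. Without HG replicate 3, the lowest of its group, the HCC1500 groups separated and the log2 change was 0.23 ± 0.04. MALAT1 and NEAT1 give long transcripts that partly lack poly(A) tails, and how RNA was selected for these libraries is not given in the sources used here.

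Transcripts of 12 listed paraspeckle proteins had a median log2 change of -0.11 in MDA-MB-175 and -0.23 in ZR-75-30, against -0.02 and 0.01 over all genes, and of -0.06 in HCC1500, the same as over all genes. In MDA-MB-175, 6 passed and all 6 were lower, among them RBM14 (log2 -0.32 ± 0.06, limma adjusted p = 0.0011) and SFPQ (log2 -0.26 ± 0.04, adjusted p = 0.0002). In ZR-75-30, 10 were lower and 1 was higher, with RBM14 at log2 -0.78 ± 0.05 (adjusted p = 8e-10) and SFPQ at -0.53 ± 0.04 (adjusted p = 6.3e-09). In HCC1500, 3 passed, near the share over all genes, 2 lower and 1 higher. Without HG replicate 3, 7 were lower and 4 higher there, with a median of -0.12 for the list and for all genes alike. Of 13 nuclear speckle and serine/arginine-rich splicing proteins, 7 were lower and 1 higher in MDA-MB-175, and 8 lower and 2 higher in ZR-75-30. In HCC1500 1 was lower (9 lower and 2 higher without HG replicate 3), and the same shares over all genes apply to this list. SRSF3, a splicing regulator, had the largest fall of this list in ZR-75-30, from a mean of 1894 to 1094 (log2 -0.79 ± 0.04, adjusted p = 1.8e-11).

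GAS5 and SNHG1 are snoRNA host genes, whose transcripts typically begin with a run of C and T bases. RefSeq promoter windows of GRCh38.p14 (250 bases before to 50 bases after the annotated start) were matched for 5 of the 8 members. The windows of GAS5 (chr1:173868996-173869295, minus strand), SNHG1 (chr11:62855836-62856135, minus strand) and TUG1 (chr22:30969015-30969314, plus strand) are shown, since both hosts passed as higher in ZR-75-30 and HCC1500 and TUG1 stayed close to its LG level. They read 5′ to 3′ on the transcribed strand, and capitals mark the longest uninterrupted C and T run within the transcribed bases, where it reaches 6, or the motif CACGTG.
GAS5: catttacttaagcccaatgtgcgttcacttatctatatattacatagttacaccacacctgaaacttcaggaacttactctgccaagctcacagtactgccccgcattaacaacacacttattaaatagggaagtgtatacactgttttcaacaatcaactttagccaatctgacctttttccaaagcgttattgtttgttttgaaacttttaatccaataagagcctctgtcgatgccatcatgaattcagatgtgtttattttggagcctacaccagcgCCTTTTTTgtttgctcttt
SNHG1: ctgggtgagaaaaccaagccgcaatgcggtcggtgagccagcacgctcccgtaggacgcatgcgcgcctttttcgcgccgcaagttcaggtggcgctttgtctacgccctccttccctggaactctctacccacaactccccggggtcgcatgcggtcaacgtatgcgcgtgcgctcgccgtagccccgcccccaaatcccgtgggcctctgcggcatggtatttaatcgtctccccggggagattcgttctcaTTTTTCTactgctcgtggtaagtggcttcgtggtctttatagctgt
TUG1: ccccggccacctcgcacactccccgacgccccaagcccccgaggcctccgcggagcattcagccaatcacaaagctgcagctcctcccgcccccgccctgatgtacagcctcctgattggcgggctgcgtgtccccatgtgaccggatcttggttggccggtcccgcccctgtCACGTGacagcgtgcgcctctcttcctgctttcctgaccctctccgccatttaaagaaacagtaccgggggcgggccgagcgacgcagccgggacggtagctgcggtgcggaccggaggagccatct
The run in GAS5 was 8 bases, beginning at transcribed base 32, and that in SNHG1 was 7 bases, beginning at base 5. Runs as long or longer were found in 17.1% and 26.7% of 35116 promoter windows, so they were not rare, and the longest run in TUG1 was 3 bases. CACGTG, the core E-box, which reads the same on both strands, was found in TUG1 alone among the 5 members and in 7.3% of all windows. A match is a description of the letters and not evidence of binding.

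GAS5 (ENSG00000234741; GRCh37 chr1:173827697-173838020, minus strand) rose in all 3 lines. In MDA-MB-175 its values were 443, 431.5, 422 and 434 at LG and 703, 583, 568 and 663 at HG (log2 0.53 ± 0.06). In ZR-75-30 they were 1112, 1033, 1029 and 1116 at LG and 2419, 2442, 2393 and 2307 at HG (log2 1.16 ± 0.04). The ZR-75-30 libraries of each group lay close together, and the mean went from 1073 ± 48.1 to 2390.2 ± 59.2 (SD, n = 4 each). In HCC1500 the values were 300.2, 309, 322 and 311 at LG and 451, 466, 1057 and 462.5 at HG. All HG libraries were above all LG libraries, but HG replicate 3 stood 1.2 log2 units above the mean of the other 3. The log2 change was 0.86 ± 0.26 with that library and 0.56 ± 0.04 without it. The HCC1500 call ended when any of the other 7 libraries was left out, at 0.85 to 0.97.

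SNHG1 (ENSG00000255717; GRCh37 chr11:62619450-62623425, minus strand) was low in MDA-MB-175, with 49.4, 42.9, 48.4 and 55.4 at LG and 64.1, 52.8, 58.2 and 59.4 at HG. These groups overlapped and the log2 change of 0.26 ± 0.11 did not pass. In ZR-75-30 it went from 146, 161.5, 179 and 186 to 287.5, 284, 300.0 and 331 (log2 0.84 ± 0.08). HCC1500 showed 290.0, 273, 294 and 291 at LG and 392, 396, 702 and 402 at HG. Again replicate 3 was far above the rest, by 0.82 log2 units, and the log2 change was 0.67 ± 0.18 with it and 0.47 ± 0.04 without it. The call ended when any LG library or HG replicate 4 was left out, at 0.65 to 0.73. In GRCh38.p14, SNHG1 starts 224 bases from the nearest of 3 annotated starts of SLC3A2, the heavy chain of an amino acid transporter, which is transcribed in the opposite direction. SLC3A2 rose in all 3 lines, from means of 958 to 1376 in MDA-MB-175 (log2 0.52 ± 0.05, limma adjusted p = 2.3e-06), 969 to 1927 in ZR-75-30 (log2 0.99 ± 0.05, adjusted p = 1.2e-11) and 1302 to 4032 in HCC1500 (log2 1.54 ± 0.24, adjusted p = 0.0027, and 1.27 ± 0.03 without HG replicate 3). Its HCC1500 HG values were 3145, 3138, 6736.5 and 3110.2, so that replicate 3 was the highest in this gene as well.

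**Figure D2:**
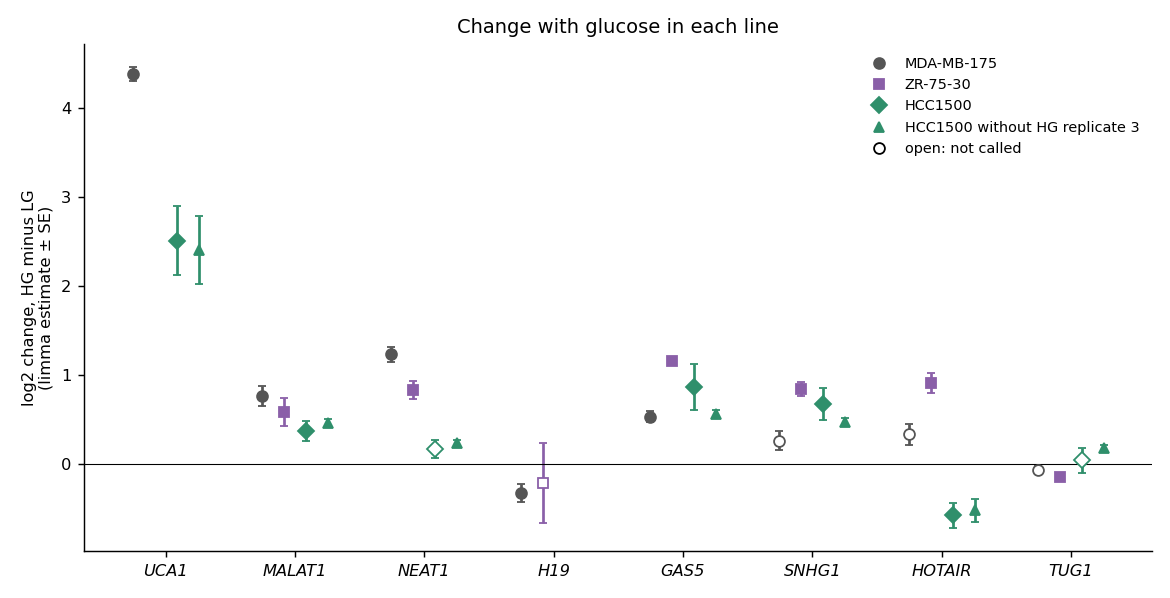
Log2 change from LG to HG (limma estimate on log2(value + 1), bars ± SE) for each long noncoding RNA and line, with HCC1500 also shown without HG replicate 3. Filled symbols passed adjusted p under 0.05 and open symbols did not. UCA1 reached 4.38 in MDA-MB-175, GAS5 was above 0 in all 3 lines, and HOTAIR was 0.91 in ZR-75-30 and -0.58 in HCC1500.

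Of 18 other listed snoRNA host genes, 16 were in the table and tested. In MDA-MB-175, 5 were higher and 3 lower. SNHG12 rose there from 13.7 to 22.4 (log2 0.68 ± 0.18, limma adjusted p = 0.013) and SNHG9 fell from 9.77 to 4.86 (log2 -0.86 ± 0.29, adjusted p = 0.038). In ZR-75-30, 8 were higher and 5 lower, with ZFAS1 up from 381 to 723 (log2 0.92 ± 0.06, adjusted p = 3e-10) and SNHG9 down from 25.2 to 11.1 (log2 -1.09 ± 0.20, adjusted p = 0.00021). In HCC1500, 3 passed, near the share over all genes, and all 3 were higher. Without HG replicate 3 there were 8 higher and 4 lower. ZFAS1 rose in HCC1500 from 256 to 695 (log2 1.3 ± 0.3, adjusted p = 0.016), or to 496 without replicate 3 (log2 0.95 ± 0.05, adjusted p = 2.8e-11). SNHG15 differed in direction by line, lower in MDA-MB-175 (log2 -0.30 ± 0.09, adjusted p = 0.018) and ZR-75-30 (log2 -0.31 ± 0.11, adjusted p = 0.027) and higher in HCC1500 (log2 1.03 ± 0.31, adjusted p = 0.046, and 0.68 ± 0.08 without HG replicate 3). The host genes thus did not all follow GAS5 and SNHG1.

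Nonsense-mediated decay factors, which limit GAS5 and SNHG1 transcripts, moved in different directions. Of 14 listed, 2 were higher and 2 lower in MDA-MB-175, and 2 were higher and 8 lower in ZR-75-30. Over all genes tested, 25.7% and 46.0% passed in these lines, so the MDA-MB-175 number was near the share over all genes. In HCC1500, 5 passed, all higher, against 20.5% of all genes (7.46% higher). Without HG replicate 3 there were 10 higher and 2 lower, against 58.5% of all genes (20.9% higher). With all libraries UPF3B rose in HCC1500 from 99.1 to 147 (log2 0.56 ± 0.10, limma adjusted p = 0.0044) and SMG5 from 1254 to 1837 (log2 0.54 ± 0.11, adjusted p = 0.0078). Without replicate 3 these were 0.53 ± 0.08 and 0.45 ± 0.04.

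HOTAIR (ENSG00000228630; GRCh37 chr12:54356092-54368740, minus strand) passed in opposite directions in ZR-75-30 and HCC1500, as TUG1 did when HCC1500 HG replicate 3 was left out. In ZR-75-30 it rose from 62.0, 54.6, 74.6 and 77.1 to 116, 124.9, 124.9 and 138, with no overlap (log2 0.91 ± 0.11). In HCC1500 it fell from 53.2, 50.5, 50.2 and 45.6 to 30.1, 33.8, 29.7 and 39.7, also with no overlap (log2 -0.58 ± 0.14, and -0.52 ± 0.13 without HG replicate 3). MDA-MB-175 lay between them, with 49.4, 48.2, 58.6 and 46.8 at LG and 63.2, 75.0, 52.7 and 65.7 at HG, overlapping groups and a log2 change of 0.33 ± 0.12 that did not pass, although it did when LG replicate 3 or HG replicate 3 was left out (0.40 and 0.42), with median-of-ratios rescaling and with edgeR (0.35 each). The HCC1500 call ended when LG replicate 1, 2 or 3 was left out, at -0.54 to -0.57. Read counts behind these values were 40 to 294 per library.

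HOTAIR lies between HOXC12 and HOXC11, on the strand opposite to the HOXC genes, which encode homeobox transcription factors. HOXC12, the neighboring gene, differed far more between lines than HOTAIR, with LG means of 729 in ZR-75-30, 2.97 in MDA-MB-175 and 0.0959 in HCC1500. In ZR-75-30 HOXC12 rose only from 729 to 808 (log2 0.15 ± 0.05, limma adjusted p = 0.013). HOXC11, which overlaps the HOTAIR gene without sharing an annotated exon base, did not pass in any line (log2 0.00 ± 0.10, 0.10 ± 0.08 and 0.25 ± 0.21, the last 0.05 ± 0.09 without HG replicate 3). Of the 9 HOXC genes, 1 was higher in MDA-MB-175, 1 was higher and 3 lower in ZR-75-30, and 2 of 8 tested were higher in HCC1500. Those were HOXC13 (log2 1.04 ± 0.18, adjusted p = 0.005, and 0.85 ± 0.07 without HG replicate 3) and HOXC6 (log2 0.63 ± 0.15, adjusted p = 0.019, and 0.55 ± 0.14 without it). Without that library 3 were higher and 2 lower, and the lower genes were HOXC9 (log2 -0.60 ± 0.19) and HOXC10 (log2 -0.37 ± 0.04). Of 10 listed members of the polycomb repressive complex 2 and the LSD1 complex, which HOTAIR is known to bind, 5 passed in ZR-75-30, 3 in MDA-MB-175 and 2 in HCC1500, all lower with all libraries. Over all genes tested, 46.0%, 25.7% and 20.5% passed in the same order (22.7%, 13.7% and 13.0% lower). With all libraries, the numbers that passed were thus near the share over all genes, although for the list every call was lower. Without HG replicate 3, 9 of the 10 passed in HCC1500, against 58.5% of all genes (20.9% higher and 37.7% lower). Of these 9, 6 were lower and 3 higher, the latter being SUZ12, RCOR1 and REST (log2 0.12 ± 0.03, 0.44 ± 0.03 and 0.23 ± 0.04). EZH2, the polycomb methyltransferase, fell in each line, from 270 to 199 (log2 -0.43 ± 0.06, adjusted p = 8e-05), from 164 to 61.8 (log2 -1.4 ± 0.08, adjusted p = 2.3e-10) and from 296 to 216 (log2 -0.46 ± 0.09, adjusted p = 0.0085, and -0.51 ± 0.06 without HG replicate 3).

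**Figure D3:**
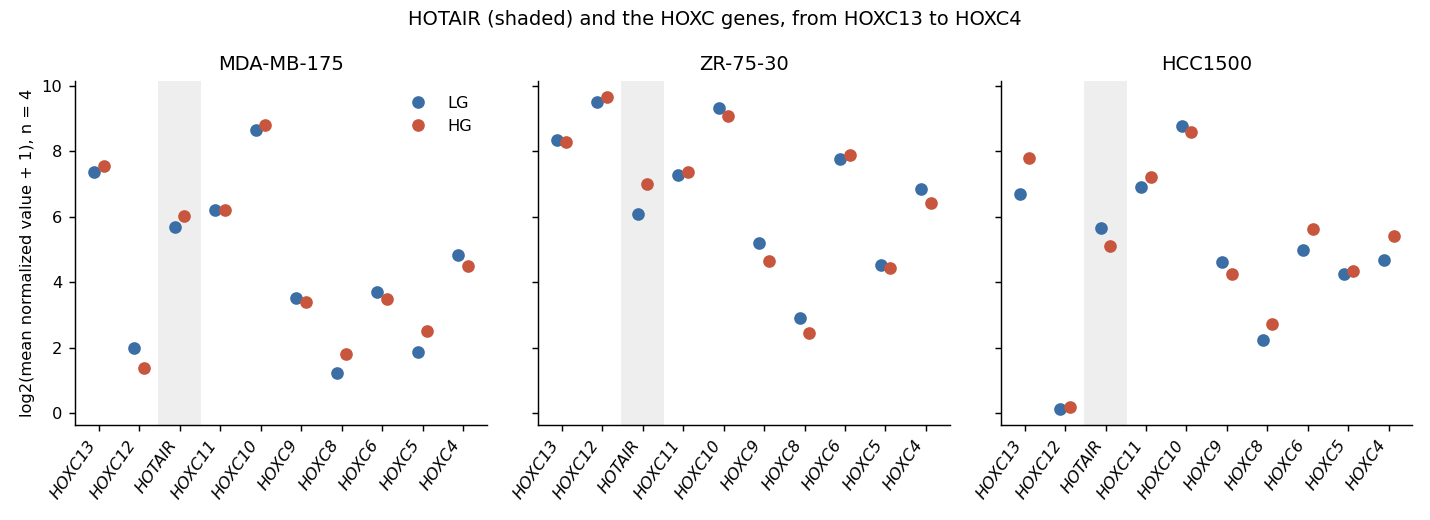
Mean normalized values (log2(mean + 1), n = 4) of HOTAIR, shaded, and 9 HOXC genes in each line at LG (blue) and HG (red). HOTAIR was 67.1 at LG and 126 at HG in ZR-75-30 and 49.9 and 33.3 in HCC1500, while HOXC12 had LG means of 2.97, 729 and 0.0959 in the 3 lines, left to right.

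H19 (ENSG00000130600; GRCh37 chr11:2016396-2025782, minus strand) was read in MDA-MB-175 only. Its values there were 118, 97.2, 117 and 86.0 at LG and 85.7, 81.2, 82.0 and 79.9 at HG. The lowest LG library was just above the highest HG library, and the log2 change was -0.33 ± 0.10, a call that ended when LG replicate 1 or 3 or HG replicate 2, 3 or 4 was left out (-0.27 to -0.33). In ZR-75-30 and HCC1500 no library held more than 3 H19 reads, which is at the floor, and no change is given. IGF2, its imprinted neighbor, was likewise a gene of MDA-MB-175, with means of 55.4 at LG and 51.2 at HG that did not differ by the test (log2 -0.11 ± 0.13, limma adjusted p = 0.6), and had means of at most 1.06 in the other lines. MRPL23, on its other side, fell in MDA-MB-175 from 181 to 149 (log2 -0.28 ± 0.07, adjusted p = 0.0063).

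TUG1 (ENSG00000253352; GRCh37 chr22:31365231-31375381, plus strand) changed least. MDA-MB-175 had 1359, 1378, 1402 and 1497 at LG and 1276, 1359, 1369.9 and 1346 at HG, overlapping groups with a log2 change of -0.07 ± 0.04 that did not pass. ZR-75-30 had 1034, 1107, 1103 and 1038 at LG and 936, 966, 981 and 983 at HG, a small fall with no overlap (log2 -0.15 ± 0.04). In HCC1500 the values were 2727, 2553, 2672 and 2598 at LG and 2934, 3074, 1999 and 2969 at HG. Here replicate 3 was the lowest HG library, opposite to its place in GAS5 and SNHG1. With it the log2 change was 0.04 ± 0.14 and did not pass, and without it the groups separated at 0.18 ± 0.03. The sign in HCC1500 turned to -0.04 when values were rescaled to library totals. The current annotation lists TUG1 as protein-coding, for a short open reading frame.

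Levels were compared between transcripts per kilobase of annotated exon. At LG, MALAT1 was the highest member in HCC1500, at 318 ± 19.7 per kb, followed by TUG1 at 260 ± 7.6, NEAT1 at 198 ± 12.6, SNHG1 at 72.2 ± 2.35 and GAS5 at 63.0 ± 1.82 (mean ± SD, n = 4). In MDA-MB-175 the order began with TUG1 at 139 ± 6.02, GAS5 at 87.7 ± 1.73 and MALAT1 at 68.2 ± 12.8. H19 stood at 30.2 ± 4.54 per kb there and NEAT1 at 26.5 ± 2.5, which lie within each other's spread. In ZR-75-30 GAS5 led at 217 ± 9.75, followed by TUG1 at 105 ± 3.92 and MALAT1 at 88.1 ± 12.9. At HG, UCA1 in MDA-MB-175 reached 231 ± 9.6 per kb, from 10.9 ± 1.29 at LG, the highest level of any member in that line. The order depends on the length used. Over the longest annotated transcript in place of merged exons, TUG1 (353 per kb) came before MALAT1 (318) in HCC1500 at LG, while UCA1, with 2688 bases in place of 4154, stayed highest in MDA-MB-175 at HG (358). For NEAT1 both lengths are nearly the same (22767 and 22743 bases). This check therefore could not show how shorter NEAT1 transcripts would move its place in the order.

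**Figure D4:**
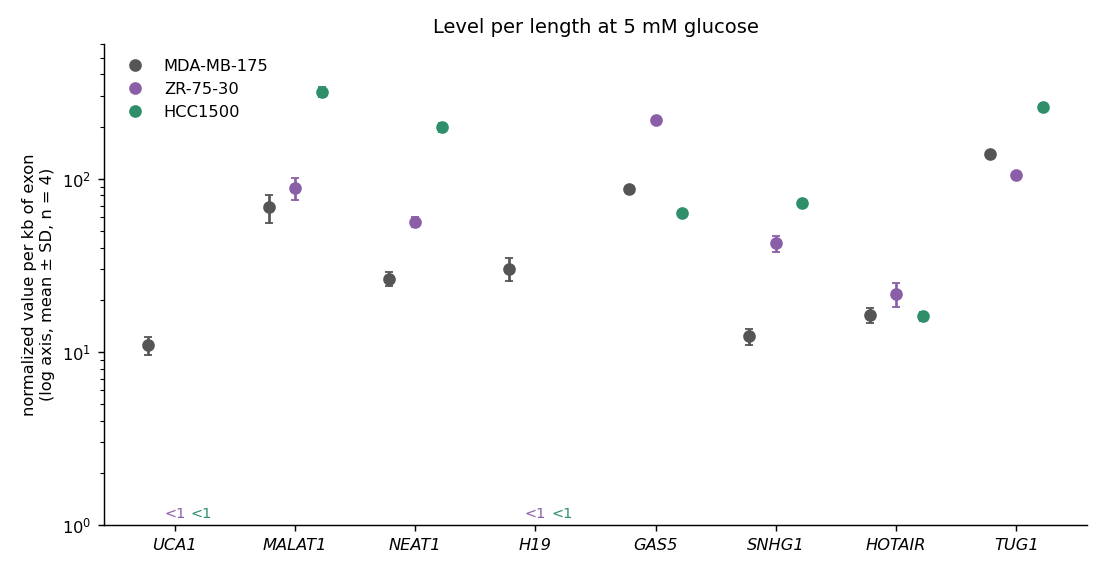
Normalized value per kilobase of merged exons at 5 mM glucose (log axis, mean ± SD, n = 4) for each long noncoding RNA in the 3 lines. Levels under 1 per kb are written as such at the foot of the plot. MALAT1, NEAT1, SNHG1 and TUG1 were highest in HCC1500, GAS5 in ZR-75-30 and UCA1 and H19 in MDA-MB-175.

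Between lines at LG, 21 of the 24 pairwise differences of members passed, against 63.8% of all genes for MDA-MB-175 and ZR-75-30, 72.6% for MDA-MB-175 and HCC1500, and 73.0% for ZR-75-30 and HCC1500. The 3 that did not pass were MALAT1 between MDA-MB-175 and ZR-75-30 (log2 -0.38 ± 0.18), HOTAIR between MDA-MB-175 and HCC1500 (log2 0.02 ± 0.12) and H19 between ZR-75-30 and HCC1500, which was at the floor in both. NEAT1 spanned the widest range among members read in all 3 lines, with LG means of 604 ± 56.9 for MDA-MB-175, 1284 ± 89.7 for ZR-75-30 and 4498 ± 286 for HCC1500. SNHG1 followed the same order, at 49.0 ± 5.15, 168 ± 18.3 and 287 ± 9.36. GAS5 had another order, with 1073 ± 48.1 in ZR-75-30, 433 ± 8.55 in MDA-MB-175 and 311 ± 8.99 in HCC1500. HOTAIR differed least, at 67.1 ± 10.6 in ZR-75-30, 50.8 ± 5.36 in MDA-MB-175 and 49.9 ± 3.14 in HCC1500, and the values of the first 2 lines overlapped. As a description, 3 members (UCA1, NEAT1 and HOTAIR) passed the limma interaction test of a glucose change differing between lines, against 29.3% of all genes. Without HCC1500 HG replicate 3, 6 members passed. Since the members were taken with these changes known, nothing is read from these counts. For UCA1 the fit also took ZR-75-30, at 0 reads, as a line with no change.

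Replicates of a group share line and glucose, so their deviations from the group mean were not used in choosing the members. Across 24 libraries, the log2 deviations of MALAT1 and NEAT1 moved together (Pearson r = 0.89, permutation p = 2e-05, adjusted p = 0.00042 over 21 relations, and Spearman rho = 0.84, permutation p = 3e-05, adjusted p = 0.00063). Without ZR-75-30 HG replicates 1 and 4, the libraries farthest out in MALAT1, r was 0.79, and without HCC1500 HG replicate 3 it was 0.88. Within each line r was 0.74 (MDA-MB-175), 0.95 (ZR-75-30) and 0.97 (HCC1500; n = 8 each, no test). ZR-75-30 HG replicate 1, the library that overlapped the LG group in MALAT1, was also the lowest HG library for NEAT1. GAS5 and TUG1 deviated in opposite directions (r = -0.95, permutation p = 0.0018, adjusted p = 0.019, and rho = -0.78, permutation p = 0.0016, adjusted p = 0.017), but this relation rested in part on HCC1500 HG replicate 3, without which r was -0.53 (permutation p = 0.013, adjusted p = 0.12). MALAT1 and NEAT1 each correlated with TUG1 (r = 0.42, permutation p = 0.0034, adjusted p = 0.024, and r = 0.43, permutation p = 0.0062, adjusted p = 0.033), but neither passed by rank (rho = 0.51, adjusted p = 0.079 each) or, by Pearson's r, without HCC1500 HG replicate 3 (adjusted p = 0.12 and 0.19). GAS5 and SNHG1, the snoRNA hosts, had r = 0.84 (permutation p = 0.057, adjusted p = 0.2), which fell to 0.21 (permutation p = 0.46, adjusted p = 0.64) without that library. Of the 6 members tested (all but UCA1 and H19), none passed against read depth by Pearson's r (adjusted p from 0.37 to 0.85). MALAT1 had the largest coefficient, r = -0.41 (rho = -0.44, permutation p = 0.069, adjusted p = 0.24). Without HCC1500 HG replicate 3 its r was -0.46 (rho = -0.53, permutation p = 0.032, adjusted p = 0.17). ZR-75-30 HG replicate 1 also differed from the other HG libraries of its line in many genes. The mean chi-square of read counts per gene was 3.46 to 7.12 against them, and 2.02 to 3.49 among the others. Pairs of genes outside the members were not compared. The part of depth, or of differences that many genes of a library share, in the covariation of MALAT1 and NEAT1 was not tested.

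**Figure D5:**
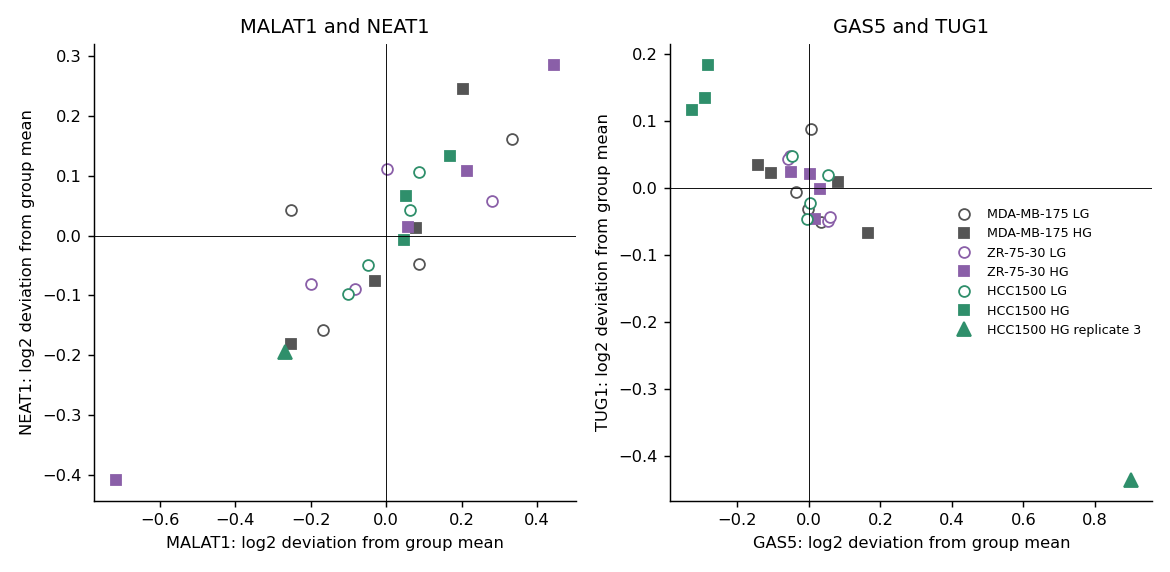
Deviation of each library from its group mean, in log2(value + 1), for MALAT1 and NEAT1 (left) and GAS5 and TUG1 (right), colored by line, with open circles for LG and filled squares for HG. MALAT1 and NEAT1 moved together over all 24 libraries (r = 0.89). HCC1500 HG replicate 3, the triangle, lies far from the other libraries for GAS5 and TUG1 (r = -0.95 with it and -0.53 without it).

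Of 35 other listed long noncoding RNAs, 29 were in the table. In MDA-MB-175, 6 of 22 tested passed with glucose, all higher. LINC00152 rose there from 49.3 to 83.8 (log2 0.75 ± 0.10, limma adjusted p = 3.4e-05) and LINC00312 from 7.63 to 14.1 (log2 0.82 ± 0.21, adjusted p = 0.0095). In ZR-75-30, 5 of 19 passed, all higher, led by TINCR, an RNA of epidermal differentiation, from 203 to 462 (log2 1.18 ± 0.05, adjusted p = 5.3e-12), and HCP5 from 29.7 to 60.0 (log2 0.98 ± 0.16, adjusted p = 5.5e-05). In HCC1500, 1 of 20 was higher and 1 lower, and without HG replicate 3 there were 6 higher and 7 lower. DSCAM-AS1, a transcript of luminal ER+ cells, rose in HCC1500 from 208 to 484 (log2 1.17 ± 0.19, adjusted p = 0.0035) and LINC00472 fell from 28.7 to 10.6 (log2 -1.4 ± 0.24, adjusted p = 0.0048). Without HG replicate 3 these were 0.96 ± 0.05 and -1.22 ± 0.20. Some of these changes were not limited to 1 line. DSCAM-AS1 also rose in MDA-MB-175, from 275 to 428 (log2 0.64 ± 0.05, adjusted p = 2.1e-07), and was low in ZR-75-30 (LG mean 4.96). LINC00152 also rose in ZR-75-30 (log2 0.97 ± 0.10, adjusted p = 1.6e-07) and TINCR in MDA-MB-175 (log2 0.50 ± 0.04, adjusted p = 3.4e-07). The median log2 change of the list was 0.12 (MDA-MB-175), 0.03 (ZR-75-30) and -0.03 (HCC1500), against -0.02, 0.01 and -0.06 over all genes. For comparison, 25.7%, 46.0% and 20.5% of all genes tested passed, lines in the same order (11.9%, 23.4% and 7.46% higher). Without HCC1500 HG replicate 3 the last share was 58.5%. With all libraries, the list thus passed at a rate near or under that of all genes.

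Genes with a pattern like that of each member were sought over the 24 libraries among 13310 genes with a mean of at least 10, as a description, since libraries of a line share most of their differences. For UCA1 these were ALPP, the placental alkaline phosphatase (Pearson r = 0.979), and ERRFI1, an inhibitor of EGF receptor signaling (r = 0.975). ALPP went from 11.9 ± 3.03 to 98.0 ± 8.57 in MDA-MB-175 (SD, n = 4 each) and was listed at 0 in ZR-75-30, as UCA1 was. For NEAT1 they were RHOBTB3 (r = 0.979) and ZBTB10 (r = 0.968), and for MALAT1 SLC25A36 (r = 0.974) and TIPARP (r = 0.964). GAS5 was closest to HLA-C (r = 0.989) and COX7A2L (r = 0.986), and SNHG1 to VAT1 (r = 0.987) and RRAGC (r = 0.984). HOTAIR had the weakest likeness, to SP100 (r = 0.944) and AHCYL1 (r = 0.930). SP100 shared its opposite movement, from 152 ± 11.3 to 281 ± 14 in ZR-75-30 and from 68.4 ± 3.82 to 49.8 ± 9.89 in HCC1500. TUG1 was closest to PCDH9 (r = 0.989) and PTBP3 (r = 0.988), and H19 to COL5A1 (r = 0.991) and FABP4 (r = 0.989).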

How the data were processed

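The deposited file gave normalized signal values per gene for 24 libraries, made by the authors from read counts. The submitters' processing notes name edgeR and hg38, while the study's methods, written for other samples, name hg19, so gene coordinates here are GRCh37 from GENCODE and only place the genes. Each library's values were whole reads divided by 1 factor (tolerance 0.1 reads), which gave reads and depth. The 8 members and all lists were chosen with earlier results of these data known. Differences were fitted with limma 3.58.1 (R 4.3.3, intensity trend, two-sided) on log2(value + 1), which understates changes of low genes, for genes at 0.5 or more in at least 4 fitted libraries, each line on its own 8 libraries, with Benjamini-Hochberg adjustment over all genes. Contrasts between lines used all 24. edgeR 4.0.16 and DESeq2 1.42.0 on recovered reads were alternatives. From each list the 2 called genes with the largest change and no overlap were named, with genome neighbors of members. Correlations used 100000 permutations. Replicates are separate samples by label, and nothing says that they were separate cultures, so p-values may measure technical spread. Counting intervals cover counting error only. Fits were tested on simulated data. Same-numbered LG and HG replicates did not deviate together.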

Additional observations from a re-analysis of the deposited data

Results flagged for a closer look

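In 42 groups of 4 libraries with a readable level, 3 had a library far from the rest by Dixon's test, and chance gives about 1 in 20. All 3 were HCC1500 HG replicate 3: GAS5 at 1057 and SNHG1 at 702.5, each the highest of its group, and TUG1 at 1999, the lowest. As a description, the glucose change differed between lines by the limma interaction test for UCA1, NEAT1 and HOTAIR. For UCA1 the gap was 1.87 on the log2(value + 1) scale between MDA-MB-175 and HCC1500 (the HCC1500 change alone ran from 1.35 to 3.19 over settings). The test also took ZR-75-30, with 0 UCA1 reads, as unchanged, so it did not test this gap alone. The gap was 1.06 for NEAT1 between MDA-MB-175 and HCC1500, and 1.49 for HOTAIR between ZR-75-30 and HCC1500.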

How the results depend on the processing

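With the replicate number as a block, members called in HCC1500 fell from 5 to 1, other snoRNA host genes from 3 to 1 and all genes from 3350 to 1964, and no member or snoRNA host count moved in the other 2 lines (all genes 4368 to 4525 in MDA-MB-175 and 7290 to 7542 in ZR-75-30). Same-numbered LG and HG replicates did not pair (mean correlation of deviations 0.05, 0.04 and 0.02; best match with the own number in 3, 2 and 3 of 8 libraries). Leaving out 1 library gave 1 to 7 members in HCC1500 (7 without HG replicate 3), 0 to 12 snoRNA hosts (0 by limma without LG replicate 1, where 3 had an unadjusted p under 0.05, 1 without LG replicate 2, 3 or 4 or HG replicate 1 or 4, and 12 without HG replicate 3) and 2 to 13 other long noncoding RNAs (13 without HG replicate 3). It gave 4 to 7 snoRNA hosts in MDA-MB-175, 5 without LG replicate 2 and 4 without LG replicate 3 or HG replicate 2, and 3 to 6 members with a glucose change that differed between lines, 6 without HCC1500 HG replicate 3. Contrasts from the fit of all 24 libraries gave 8 snoRNA hosts in ZR-75-30, 1 in MDA-MB-175 and 6 in HCC1500, 5 other long noncoding RNAs in HCC1500, and 2011 and 5842 genes in MDA-MB-175 and HCC1500. DESeq2 gave 8 snoRNA hosts and 4 other long noncoding RNAs in HCC1500, and edgeR and median-of-ratios rescaling also gave 4. Members whose change differed between lines numbered 5 under median-of-ratios rescaling, 6 when rescaled to library totals and 5 with DESeq2. The sign of TUG1 in HCC1500 (0.0368) turned to -0.0381 when rescaled to library totals, and leaving out 1 library gave -0.0247 to 0.1822. The cause of these shifts was not tested. Of 240 member changes under other settings, 226 kept direction and call, and 138 of 172 did with 1 library left out. In the fit of all 24 libraries H19 in MDA-MB-175 and TUG1 in ZR-75-30 no longer passed. Low read counts limit UCA1 in HCC1500 and H19 outside MDA-MB-175.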
